A study of Arabidopsis thaliana with 21 samples.

Results

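The 44 genes described here encode transcription factors at the end of the auxin pathway of Arabidopsis thaliana and the repressors that bind them. These are 44 of the 32833 genes counted in the series. They were chosen by gene identifier, with earlier results of these data known. There are 29 Aux/IAA genes, IAA1 to IAA20 and IAA26 to IAA34, and 15 auxin response factor (ARF) genes, ARF1 to ARF11 and ARF16 to ARF19. Poly-A RNA was sequenced from roots sampled before treatment (0 h) and at 6, 12 and 24 h of a mock treatment or of AtCEP5. AtCEP5 belongs to the C-TERMINALLY ENCODED PEPTIDES, short secreted peptides that act as signals between plant cells. This gives 7 groups of 3 libraries and 21 libraries in all. The study's title places the experiment in the control of root growth by these peptides through auxin and cytokinin signalling. The genotype, plant age, growth medium and peptide dose are details not given in the sources used here, and nothing in the labels says whether the 3 replicates came from separate cultures, so p-values measure the spread between these libraries, which may be technical.

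Aux/IAA proteins are short-lived repressors that bind ARFs and bring the TOPLESS co-repressors to auxin-responsive genes. Auxin acts as a molecular glue between an Aux/IAA protein and the F-box receptors TIR1 and AFB, which mark the repressor for destruction and so free the ARF. ARF5, ARF6, ARF7, ARF8 and ARF19 activate transcription, and most other ARFs repress it. Many Aux/IAA genes are themselves switched on by auxin, which makes a feedback loop. In roots, stabilised forms of individual repressors are known to block lateral root formation, gravitropism or root hair growth.

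Libraries held 10334319 to 14345476 counts. Counts from ribosomal RNA genes made up 2.20% of mock 6 h replicate 2 and 1.96% of AtCEP5 12 h replicate 3, against 0.270 to 0.601% in the others. The labels name the cells as root meristem cells. The 8 root meristem marker genes, among them WOX5 of the quiescent centre, summed to 130.6 to 195.8 CPM (counts scaled to the library total after TMM correction, edgeR's adjustment for differing library composition) over the 21 libraries, and none was at 0 in any group. The 8 markers of older root tissue were also read in every group and summed to 613 to 2117 CPM, so RNA of differentiated root tissue was present too. The 6 photosynthesis genes summed to 355.9 to 1991 CPM before treatment and to 134 to 433 CPM afterwards. The value of 1991 CPM came from replicate 3 before treatment.

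The stretch that auxin and its receptors grip is the degron of domain II, and its 4 central codons, GGN, TGG, CCN and CCN in this order, were found in frame in 23 of the 29 Aux/IAA genes. They were not found in IAA20, IAA30, IAA31, IAA32, IAA33 or IAA34. The coding strand around these codons in the TAIR10.1 reference is printed for the 5 genes that differed between AtCEP5 and mock roots at individual times and for IAA1 and IAA7, the chromosomal neighbours of 2 of them. Capitals mark the 4 codons.
IAA14, chr4:8349478-8349504, minus strand: gtggtgGGTTGGCCACCGgtgaggaac
IAA17, chr1:1136941-1136967, plus strand: gttgtgGGATGGCCACCGgtgagatca
IAA19, chr3:5264310-5264336, plus strand: gtggtgGGGTGGCCACCGgtttgttct
IAA28, chr5:9033815-9033841, plus strand: gtggtgGGATGGCCGCCGgtgagatca
IAA2, chr3:8181387-8181413, minus strand: atcgttGGTTGGCCACCAgtgagatct
IAA1, chr4:8361439-8361465, plus strand: atcgttGGATGGCCTCCAgtgagatct
IAA7, chr3:8195571-8195597, plus strand: gtggtgGGATGGCCACCTgtgaggaac
The 7 genes, 6 of which were lower and 1 higher after AtCEP5 on the average over the times, all carry the 4 codons, with different synonymous letters. IAA3, the chromosomal neighbour of IAA17, is not printed. It carries the 4 codons too and was not called against mock at any time or on the average.

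Levels per gene length were compared as FPKM, fragments scaled to gene length and library total. Before treatment the most abundant member was IAA9, at 238.6 ± 23.7 FPKM (SD, n = 3), which was 21.2% of the summed Aux/IAA level. IAA16, IAA17 and IAA28 followed at 177 ± 11.3, 162 ± 15.6 and 153.5 ± 61.1 FPKM (SD, n = 3). Their libraries overlapped, and the highest IAA28 library, at 224.0 FPKM, also reached into the IAA9 range of 223 to 266 FPKM. By group mean the same 4 genes were the most abundant in all 7 groups. In AtCEP5 roots at 24 h, however, IAA28 had 54.2, 56.4 and 89.1 FPKM and IAA4 61.4, 59.8 and 74.6 FPKM, so IAA28 led IAA4 in replicate 3 alone. The order of the 4 means changed below IAA9. In AtCEP5 roots at 24 h IAA16 stood at 145.0, IAA17 at 96.2 and IAA28 at 66.6 FPKM, whereas in mock roots at 24 h IAA17 led with 119.5 to 154 FPKM, ahead of IAA16 at 115.8 to 123.2 and IAA28 at 78.8 to 129 FPKM, with overlapping libraries. IAA9 overlaps a gene on the other strand, and the sources used here do not give whether counting used strand, so its level is uncertain. At the low end, IAA15 lay between 0 and 0.256 FPKM in every library. IAA6, IAA15 and IAA32 did not pass the filter on low counts, and the other 41 members were tested.

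**Figure D1:**
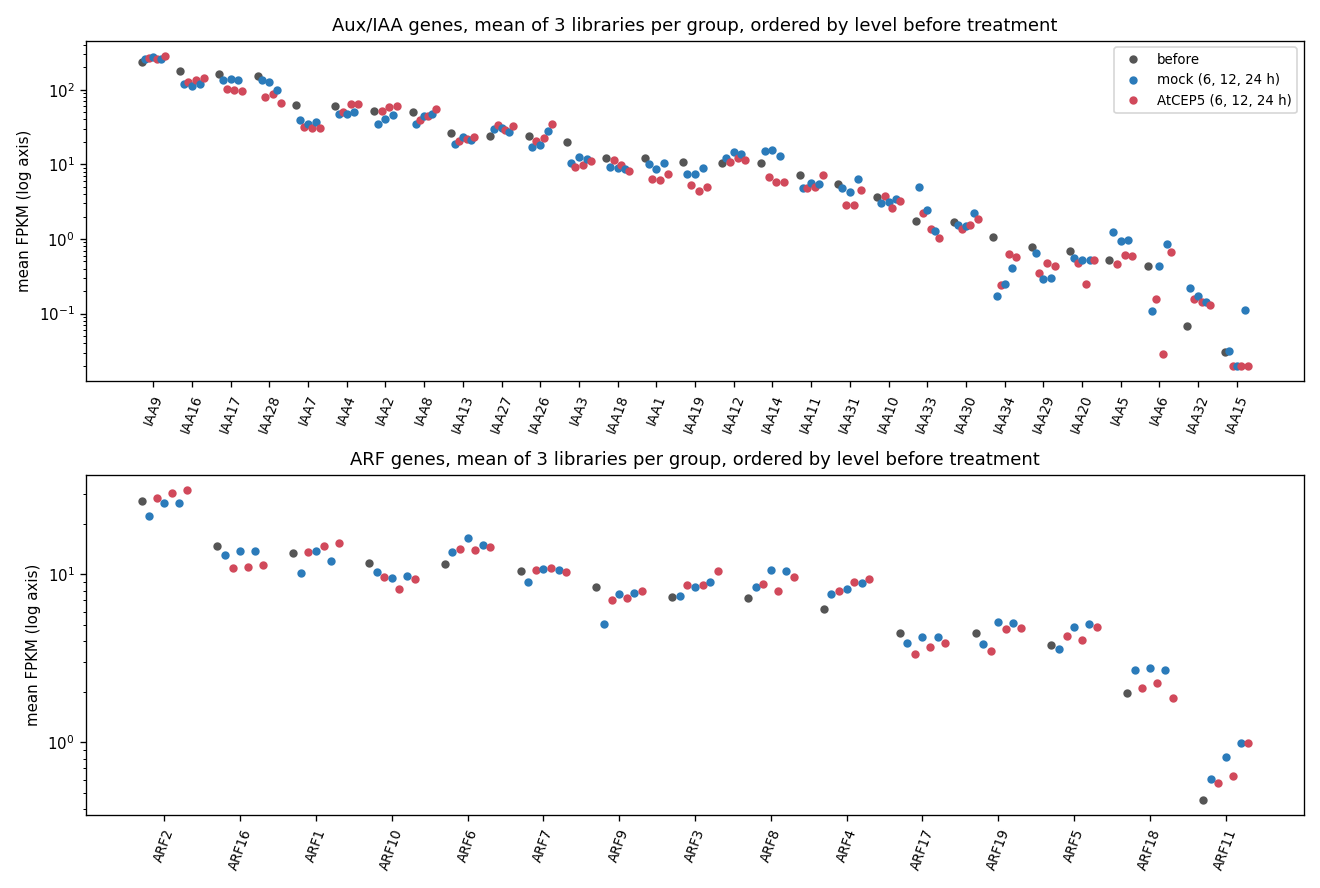
Mean FPKM of each of the 44 genes in the 7 groups on a log axis, ordered by level before treatment, with values under 0.02 FPKM drawn at 0.02. IAA9 leads in all groups, from 238.6 FPKM before treatment to 283 FPKM in AtCEP5 roots at 24 h.

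The summed Aux/IAA level was 1128 ± 126 FPKM before treatment. In mock roots it was 954 ± 49.2, 979 ± 12.9 and 956 ± 32.9 FPKM at 6, 12 and 24 h, and in AtCEP5 roots 896 ± 39.9, 921 ± 94.0 and 962 ± 55.2 FPKM (SD, n = 3). The ARF sum was about an order of magnitude lower, from 121.5 ± 12.8 FPKM in mock roots at 6 h to 146 ± 13.5 FPKM in AtCEP5 roots at 24 h, with 133 ± 22.0 FPKM before treatment (SD, n = 3). The highest ARF was ARF2, a repressor, with group means of 22.1 to 31.6 FPKM. The family totals of AtCEP5 and mock roots thus lay close together while individual repressors moved apart.

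AtCEP5 was compared with mock at each time with edgeR's quasi-likelihood test, fitted to the counts of all 21 libraries, with p-values adjusted by the Benjamini-Hochberg method over 19938 genes and called under 0.05. After AtCEP5, IAA14, IAA17, IAA19 and IAA28 were lower at 1 or more times and IAA2 was higher. These calls were 4 of 41 members at 6 h (9.76%), 4 at 12 h (9.76%) and 3 at 24 h (7.32%). Of all genes tested, 11.3%, 12.1% and 7.81% were called at the same times, so the members were called about as often as other genes. Of the calls, 1 was higher and 3 lower at 6 h, beside 5.94% and 5.33% of all genes. At 12 h they were 1 and 3 beside 6.71% and 5.41%, and at 24 h 0 and 3 beside 3.7% and 4.12%. All of these calls were of Aux/IAA genes. The median log2 fold change of the 26 tested Aux/IAA genes was −0.22, −0.16 and −0.09 at 6, 12 and 24 h, beside 0.01, −0.02 and −0.00 over all genes tested. The labels give the samples as roots and the cells as root meristem cells, and bulk RNA of many cells was read, so fewer cells of a type and less RNA per cell cannot be told apart.

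IAA14 (SOLITARY-ROOT, AT4G14550, chr4:8347822-8350263, minus strand) is known as a repressor of lateral root initiation. It had 17.9, 19.2 and 20.6 CPM before treatment. Mock libraries had 31.7, 29.4 and 27.8 CPM at 6 h, 31.3, 30.4 and 26.3 at 12 h, and 32.5, 22.7 and 17.5 at 24 h. AtCEP5 libraries had 14.3, 12.4 and 11.9 CPM at 6 h, 12.1, 12.4 and 8.92 at 12 h, and 10.3, 11.2 and 10.4 at 24 h. Every AtCEP5 library lay below every mock library and every library taken before treatment. The log2 fold change against mock was −1.20 ± 0.18 at 6 h (SE, edgeR adjusted p = 8.09e-05), −1.39 ± 0.18 at 12 h (1.34e-05) and −1.18 ± 0.18 at 24 h (0.000143). Over the 3 times it averaged −1.26 ± 0.10, a 2.39-fold lower level (edgeR adjusted p = 4.04e-09). This call was kept in all 17 alternative analyses at each time, including those that left out any 1 of the 6 libraries compared.

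IAA17 (AXR3, AT1G04250, chr1:1136078-1138663, plus strand) is known from a stabilised mutant with altered gravitropism and root hairs. Mock libraries had 161.0, 189 and 207 CPM at 6 h, 192, 164 and 186 at 12 h, and 213, 162 and 152 at 24 h. AtCEP5 libraries had 130.1, 140.1 and 134 CPM at 6 h, 135.5, 134.5 and 126 at 12 h, and 114, 110.5 and 148 at 24 h. Here too all 9 AtCEP5 libraries lay below all 12 others, since the 3 libraries before treatment had 211, 192 and 229.8 CPM. The log2 fold change was −0.46 ± 0.14 at 6 h (SE, edgeR adjusted p = 0.0335), −0.45 ± 0.14 at 12 h (0.0346) and −0.50 ± 0.14 at 24 h (0.0283). The calls at single times rest on few libraries. At 6 h the edgeR adjusted p became 0.0871 to 0.141 without any 1 AtCEP5 library or without mock replicate 2 or 3. At 12 h it became 0.0596 to 0.163 without any 1 of the 6 libraries. At 24 h it became 0.153 or 0.169 when AtCEP5 replicate 1 or 2 was left out, and 0.188 when mock replicate 1 was. Other settings also ended these calls, namely limma at 6 h (0.0506 to 0.059), RLE size factors (0.0522) or no filter (0.06) at 12 h, and a fit of the 6 libraries alone at 24 h (0.171). Without both libraries rich in ribosomal RNA the adjusted p was 0.104 at 6 h and 0.141 at 12 h. The average over the 3 times, −0.47 ± 0.08 (SE, edgeR adjusted p = 9.65e-05), was called in all 29 alternative analyses.

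IAA19 (MSG2, AT3G15540, chr3:5264001-5265695, plus strand), known as an early auxin-induced repressor that acts in tropic bending, was read at a lower level. Mock libraries had 6.93, 8.001 and 8.55 CPM at 6 h, 7.998, 6.72 and 7.55 at 12 h, and 8.91, 8.26 and 10.1 at 24 h. AtCEP5 libraries had 5.92, 4.76 and 5.13 CPM at 6 h, 5.41, 4.26 and 3.55 at 12 h, and 4.84, 4.99 and 5.02 at 24 h. Before treatment it had 8.69, 11.6 and 12.4 CPM, so all 9 AtCEP5 libraries again lay below all 12 others. The log2 fold change was −0.57 ± 0.19 at 6 h (SE, edgeR adjusted p = 0.0517, not called), −0.74 ± 0.19 at 12 h (0.0105) and −0.87 ± 0.19 at 24 h (0.0039). At 12 h the adjusted p became 0.0564 or 0.0626 when AtCEP5 replicate 2 or 3 was left out, and 0.0562 when mock replicate 1 was. It became 0.0718 without both libraries rich in ribosomal RNA. The 6 h value was called with size factors of the RLE kind (0.0469) and by DESeq2 (0.0377). The average was −0.73 ± 0.11, a 1.66-fold lower level (SE, edgeR adjusted p = 1.79e-05).

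IAA28 (AT5G25890, chr5:9033204-9035140, plus strand), which acts early in lateral root founder cell specification, was lower at 6 h. Its 3 AtCEP5 libraries had 95.5, 120.3 and 120.1 CPM, below the mock libraries at 176, 216 and 191 CPM. At 12 h AtCEP5 libraries had 154, 113 and 99.4 CPM against 173, 174 and 174 in mock, and IAA28 was not called in the fit of all 21 libraries. In the 6 libraries alone it was called at 12 h, at −0.50 ± 0.15 (SE, edgeR adjusted p = 0.0378), and also with the replicate number as a block (0.0198). At 24 h AtCEP5 libraries had 75.0, 75.8 and 122 CPM and overlapped the mock libraries at 187.5, 127 and 106 CPM, and IAA28 was not called. The log2 fold change at 6 h was −0.79 ± 0.24 (SE, edgeR adjusted p = 0.0372), and the adjusted p became 0.0633 to 0.145 without any 1 of the 6 libraries and 0.122 without both libraries rich in ribosomal RNA. In limma with a pseudocount of 0.1 or with no filter it was 0.0504 and 0.0827. The average over the 3 times was −0.64 ± 0.14 (SE, edgeR adjusted p = 0.00127).

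IAA2 (AT3G23030, chr3:8180646-8182095, minus strand), an auxin-induced repressor, was the only member called higher than mock at a single time in this fit. Mock libraries had 46.6, 52.3 and 50.4 CPM at 6 h, 48.5, 61.7 and 55.8 at 12 h, and 59.3, 65.6 and 62.0 at 24 h. AtCEP5 libraries had 67.5, 76.2 and 69.8 CPM at 6 h, 98.5, 71.4 and 71.8 at 12 h, and 87.2, 77.1 and 75.5 at 24 h. All 9 AtCEP5 libraries lay above all 9 mock libraries, while the libraries before treatment, at 80.5, 60.7 and 66.3 CPM, overlapped both. The log2 fold change was 0.52 ± 0.14 at 6 h (SE, edgeR adjusted p = 0.0158) and 0.54 ± 0.14 at 12 h (0.00987). At 24 h IAA2 was not called. At 6 h the adjusted p became 0.0802 or 0.0629 when AtCEP5 replicate 2 or 3 was left out, and 0.0804 when mock replicate 1 was. At 12 h it became 0.103 without AtCEP5 replicate 1 and 0.0642 without mock replicate 1. The average was 0.47 ± 0.08 (SE, edgeR adjusted p = 7.4e-05).

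**Figure D2:**
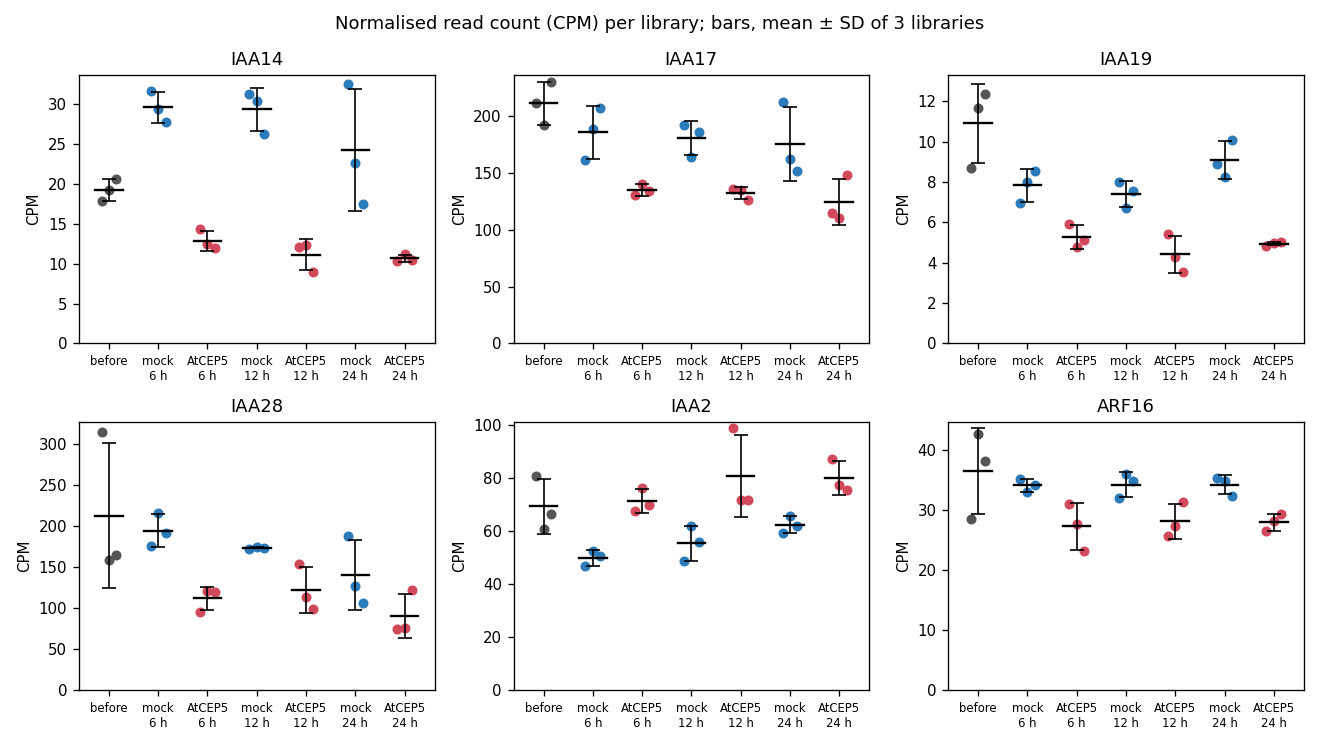
CPM of IAA14, IAA17, IAA19, IAA28, IAA2 and ARF16 in each of the 21 libraries by time, with points for single libraries and the mean ± SD of 3 libraries per group. The AtCEP5 libraries of IAA14 lie between 8.92 and 14.3 CPM and those of the other groups between 17.5 and 32.5 CPM.

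AtCEP5 and mock libraries with the same replicate number deviated together at 6 h and not at 12 or 24 h. This does not establish pairs, since differently numbered libraries at 24 h also deviated together (correlation up to 0.354). In a fit of the 6 libraries at 6 h with the replicate number as a block, 12 of 37 tested members were called, 4 higher and 8 lower, and 25.2% of all genes tested were called. The 8 lower members were IAA1, IAA7, IAA14, IAA17, IAA28, IAA31, IAA33 and ARF16, and the 4 higher members were IAA2, ARF1, ARF2 and ARF9. Without the block the same 6 libraries gave 7 calls, beside 14.5% of all genes.

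A further count was chosen after the values were seen. Of the 41 tested members, 3 (7.32%) had all 9 AtCEP5 libraries below all 12 other libraries, and these were IAA14, IAA17 and IAA19. Of all genes tested, 0.692% did. None had all 9 above all 12 others, beside 0.261% of all genes. Against the 9 mock libraries alone 4 members (9.76%), the same 3 and ARF16, lay wholly lower, beside 1.98% of all genes, and IAA2 alone lay wholly higher (2.44%), beside 2.48% of all genes. At single times the 3 AtCEP5 libraries lay wholly below the 3 mock libraries for 11 members at 6 h, 8 at 12 h and 5 at 24 h, beside 16.1%, 16.5% and 11.2% of all genes. They lay wholly above them for 4, 5 and 7 members, beside 15.7%, 15.3% and 10.8% of all genes.

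Averaging the AtCEP5 difference over the 3 times, with 9 libraries on each side, gave 15 calls among the 41 members (36.6%) by the same edgeR test, 4 higher and 11 lower. Of all genes tested 30.3% were called, 14.8% higher and 15.5% lower. Beside the 5 genes above, the repressors IAA1 and IAA7 were lower, by −0.56 ± 0.15 (SE, adjusted p = 0.00561) and −0.27 ± 0.07 (0.00854). IAA1 stood at 4.34 to 10.04 CPM in AtCEP5 libraries and at 7.02 to 11.6 CPM in mock libraries, and IAA7 at 51.8 to 67.6 CPM against 61.9 to 82.6 CPM, so both overlapped. IAA12 (BODENLOS), known from the embryonic root, averaged −0.24 ± 0.08 (adjusted p = 0.0361). IAA31 and IAA33, which lack the 4 degron codons, averaged −0.63 ± 0.20 (0.023) and −0.80 ± 0.25 (0.0206). They are low genes, with 1.44 to 8.28 CPM for IAA31 and 0.410 to 6.18 CPM for IAA33 over the AtCEP5 and mock libraries. IAA16 and IAA26 were higher, by 0.18 ± 0.06 (0.0245) and 0.28 ± 0.09 (0.0213).

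The calls of the average differed in how they held. IAA1, IAA2, IAA7, IAA14, IAA17, IAA19, IAA28, ARF1, ARF16 and ARF18 were called in all 29 alternative analyses. The edgeR adjusted p of IAA12 became 0.0555 to 0.0889 without any 1 of 12 libraries, namely replicates 2 and 3 of AtCEP5 and replicates 1 and 2 of mock at each time. That of IAA16 became 0.058 without AtCEP5 6 h replicate 3, 0.0687 without AtCEP5 12 h replicate 1, 0.0545 without mock 6 h replicate 1 and 0.054 without mock 12 h replicate 1. That of IAA26 became 0.0507 without AtCEP5 12 h replicate 1. That of IAA31 became 0.051 to 0.0593 without AtCEP5 6 h replicate 2, AtCEP5 12 h replicate 3, AtCEP5 24 h replicate 1 or mock replicate 1 of any time. That of IAA33 became 0.0537 and 0.0524 without AtCEP5 24 h replicate 1 or 2, and 0.0677 without mock 6 h replicate 1. Without both libraries rich in ribosomal RNA the adjusted p of IAA12 was 0.116 and that of IAA31 0.064, and with no filter on low counts that of IAA12 was 0.0513 and that of IAA16 0.0797.

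None of the 15 ARF genes was called at 6, 12 or 24 h by edgeR, with 4, 1 and 3 genes at an unadjusted p under 0.05. DESeq2 and limma called none at these times either. The blocked fit of the 6 libraries at 6 h called 4 of 15, beside 25.2% of all genes, and 1 was called at 24 h without AtCEP5 replicate 3. On the average 3 of 15 (20%) were called, below the 30.3% of all genes. ARF1, a repressor, was higher by 0.27 ± 0.08 (SE, edgeR adjusted p = 0.0108), with 31.5 to 43.9 CPM in AtCEP5 libraries and 25.6 to 38.3 CPM in mock libraries. ARF1 overlaps a gene on the other strand, so its counts are uncertain. ARF16, a repressor that patterns the root cap, was lower by −0.30 ± 0.08 (adjusted p = 0.00619), with 23.3 to 31.4 CPM in AtCEP5 and 32.0 to 36.1 CPM in mock libraries, which did not overlap. ARF18, also of the repressor type, was lower by −0.43 ± 0.11 (0.00499), with 4.26 to 6.80 CPM against 6.29 to 7.61 CPM. The 5 activators ARF5, ARF6, ARF7, ARF8 and ARF19 were not called at any time or on the average.

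ARF10, ARF16 and ARF17 are cut by the microRNA miR160, and ARF6 and ARF8 by miR167. These sequences are shown because ARF16 was the microRNA target that differed after AtCEP5. The sites were searched in coding sequence. The mature microRNAs are given in DNA letters with the seed (bases 2 to 8) in capitals, and the sites on the mRNA strand of TAIR10.1 with mismatches to perfect pairing in capitals.
miR160a, miR160b and miR160c: tGCCTGGCtccctgtatgcca
miR167a and miR167b: tGAAGCTGccagcatgatcta
ARF16, chr4:14704141-14704161, minus strand: GggTTtacagggagccaggca
ARF10, chr2:12115741-12115761, plus strand: AggAatacagggagccaggca
ARF17, chr1:29274189-29274209, plus strand: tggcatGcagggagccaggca
ARF6, chr1:10686478-10686498, minus strand: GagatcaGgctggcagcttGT
ARF8, chr5:14633841-14633861, plus strand: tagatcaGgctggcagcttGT
The miR160 sites hold 3, 2 and 1 mismatches in ARF16, ARF10 and ARF17, and the miR167 sites 4 and 3 in ARF6 and ARF8. In the remaining ARF genes the best match held 8 or more mismatches for miR160 and 7 or more for miR167. ARF10 and ARF17 were not called against mock on the average (edgeR adjusted p = 0.133 and 0.0958). Of the 14 small RNA precursor genes of the miR160, miR167, miR390 and TAS3 families, 3 passed the filter on low counts and none was called. At each time and on the average none of the 3 had an unadjusted p under 0.05 in edgeR. Other analyses called 1 precursor in 5 cases, TAS3A in the blocked fit at 6 h (adjusted p = 0.0375) and on the average without AtCEP5 24 h replicate 3 (0.0408), and MIR167B or MIR167C in limma fits that kept more low genes (0.0219 to 0.0466). Mature microRNAs were not measured.

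Several repressors lie in pairs on the chromosome with 1 gene between them, and the partners did not all move the same way. IAA14 and IAA1 are 10732 bases apart on chromosome 4, and both were lower on the average, by −1.26 and −0.56. IAA2 and IAA7 are 12510 bases apart on chromosome 3, and on the average IAA2 was higher, by 0.47, and IAA7 lower, by −0.27. IAA3 and IAA17 are 6388 bases apart on chromosome 1. IAA17 averaged −0.47, whereas IAA3 (SHY2), known to limit root meristem size, was not called at any time or on the average. IAA3 had 10.7 to 16.6 CPM in AtCEP5 libraries and 10.4 to 20.7 CPM in mock libraries. The difference between partners was not tested. IAA3 overlaps a gene on the other strand, so its counts are uncertain.

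Whether the AtCEP5 difference itself changed with time was tested as an interaction. No member was called for 12 h against 6 h, 24 h against 12 h or 24 h against 6 h by edgeR, and 1, 0 and 0 members had an unadjusted p under 0.05. Of all genes tested, 0.00502%, 0.015% and 0.01% were called. DESeq2 and limma also called none. The counts of calls at 6, 12 and 24 h therefore do not show that the differences differed between times.

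ARFs bind the auxin response element, searched here as TGTCTC or TGTCGG on both strands in the 300 bases before each gene start in TAIR10.1. Of the 29 Aux/IAA genes 14 (48.3%) held a match, of the 15 ARF genes 4 (26.7%), and of 27443 protein-coding genes 4735 (17.3%). The promoters of IAA14 and IAA19, which were lower than mock, and of IAA2, which was higher, are printed on the gene's strand to show a window with matches beside those without, with matches in capitals.
IAA14, chr4:8350264-8350563, minus strand: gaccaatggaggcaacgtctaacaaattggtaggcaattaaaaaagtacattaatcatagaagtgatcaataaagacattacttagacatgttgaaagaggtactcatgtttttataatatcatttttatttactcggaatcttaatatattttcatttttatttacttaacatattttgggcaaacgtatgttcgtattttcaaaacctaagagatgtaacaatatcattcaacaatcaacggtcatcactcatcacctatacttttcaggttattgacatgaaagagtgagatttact
IAA19, chr3:5263701-5264000, plus strand: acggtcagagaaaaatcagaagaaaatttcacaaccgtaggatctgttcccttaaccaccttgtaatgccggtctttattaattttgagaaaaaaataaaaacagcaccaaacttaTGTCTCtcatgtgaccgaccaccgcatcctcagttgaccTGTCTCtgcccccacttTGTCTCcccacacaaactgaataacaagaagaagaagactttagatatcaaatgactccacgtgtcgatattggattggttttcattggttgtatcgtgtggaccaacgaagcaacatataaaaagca
IAA2, chr3:8182096-8182395, minus strand: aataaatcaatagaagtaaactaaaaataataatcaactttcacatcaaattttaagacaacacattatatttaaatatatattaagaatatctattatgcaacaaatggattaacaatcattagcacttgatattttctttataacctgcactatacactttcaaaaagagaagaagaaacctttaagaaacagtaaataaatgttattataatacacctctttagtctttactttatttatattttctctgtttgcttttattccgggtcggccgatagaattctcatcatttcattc
IAA19 holds 3 copies of TGTCTC. IAA14 and IAA2 hold no match in this window, nor do IAA17 and IAA28. A match is a run of letters and not a measured binding site.

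The course of each treatment was then set against the libraries taken before it. In mock roots 15 of 41 members (36.6%) were called at 6 h, 10 (24.4%) at 12 h and 7 (17.1%) at 24 h by edgeR, beside 38.7%, 37.4% and 35.1% of all genes. At 6 h 4 were higher and 11 lower, beside 18.2% and 20.5% of all genes. At 12 h they were 5 and 5 beside 17.7% and 19.7%, and at 24 h 2 and 5 beside 16.6% and 18.5%. The median log2 fold change of the members was −0.15, −0.17 and −0.09, beside −0.03, −0.01 and −0.01 over all genes. In AtCEP5 roots 15 (36.6%), 12 (29.3%) and 16 (39.0%) were called, beside 27.7%, 23.7% and 28% of all genes. At 6 h 1 was higher and 14 lower, beside 13.1% and 14.6% of all genes. At 12 h they were 1 and 11 beside 10.5% and 13.2%, and at 24 h 5 and 11 beside 12.8% and 15.2%. The members had medians of −0.27, −0.19 and −0.09 beside −0.01, 0.00 and 0.01 over all genes. Both sets of comparisons share the libraries taken before treatment, so they are not independent.

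Among members called at 2 or more times, 5 with the largest mean change are given for each treatment. IAA7 (AXR2), a repressor whose stabilised form disturbs root gravitropism, fell in both. It had 105 to 130.0 CPM before treatment, 61.9 to 82.6 CPM in mock libraries and 51.8 to 67.6 CPM in AtCEP5 libraries. Its log2 fold change against 0 h was −0.58, −0.81 and −0.76 in mock roots (SE 0.13 each, edgeR adjusted p = 0.000964, 3.61e-05 and 8.7e-05). In AtCEP5 roots it was −0.95, −0.98 and −1.02 (SE 0.13 each, 9.98e-06, 7.51e-06 and 3.99e-06). IAA3 also fell in both, from 22.7 to 32.4 CPM before treatment to 10.4 to 20.7 CPM in mock and 10.7 to 16.6 CPM in AtCEP5 libraries. Its log2 fold changes were −0.85, −0.66 and −0.75 in mock and −1.10, −0.9998 and −0.83 in AtCEP5 roots (SE 0.21 each, edgeR adjusted p between 0.000419 and 0.0144). The mock call at 12 h became 0.0838 without replicate 1 before treatment and 0.0692 without mock replicate 1.

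IAA16 fell in mock roots from 338 to 377 CPM before treatment to 223 to 267 CPM, with log2 fold changes of −0.50, −0.63 and −0.56 (SE 0.10 each, edgeR adjusted p = 0.000592, 6.23e-05 and 0.000264). IAA16 was also called lower in AtCEP5 roots at 6, 12 and 24 h, with a mean log2 fold change of −0.382. IAA34, a low gene that shares its strand with an overlapping gene, had 0.472 to 1.61 CPM before treatment and 0.140 to 0.547 CPM in mock libraries. It fell by −2.497 ± 0.73 at 6 h (SE, edgeR adjusted p = 0.00897) and −2.06 ± 0.66 at 12 h (0.0176), and was −1.34 at 24 h (0.0911, not called). Its 12 h call became 0.0954 without replicate 1 before treatment, 0.0725 without mock replicate 2 and 0.0799 without mock replicate 3. In AtCEP5 roots IAA34 was called lower at 6 h and was not called at 12 or 24 h.

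IAA14 was called higher in mock roots and lower in AtCEP5 roots at 6 and 12 h, and no other member was called in opposite directions at the same time. Relative to 0 h it rose in mock roots by 0.62 ± 0.17 at 6 h (SE, edgeR adjusted p = 0.00637) and 0.61 ± 0.17 at 12 h (0.00779), and stood at 0.33 at 24 h (0.141, not called). In AtCEP5 roots it fell by −0.58 ± 0.18 (0.0175), −0.78 ± 0.18 (0.00278) and −0.85 ± 0.18 (0.00114). The difference between both courses is the comparison with mock given above. IAA17 did not pass the test in mock roots at any time, at −0.19, −0.22 and −0.27, and fell in AtCEP5 roots by −0.65, −0.68 and −0.76 (SE 0.14 each, edgeR adjusted p = 0.00136, 0.00113 and 0.000285). IAA2 fell only in mock roots at 6 h, by −0.48 ± 0.14 (edgeR adjusted p = 0.0085), and was 0.04, 0.22 and 0.21 in AtCEP5 roots, none called.

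Among the members called at 2 or more times, IAA19 had the largest mean change in AtCEP5 roots, by −1.05, −1.30 and −1.14 against 0 h (SE 0.18, 0.19 and 0.18, edgeR adjusted p = 0.000184, 2.49e-05 and 8.4e-05). In mock roots it was −0.48 at 6 h (0.0386), −0.55 at 12 h (0.0177) and −0.26 at 24 h (0.255, not called). IAA28 fell by −0.92, −0.80 and −1.23 in AtCEP5 roots (SE 0.24, 0.24 and 0.25, edgeR adjusted p = 0.00677, 0.0205 and 0.000714). Before treatment its libraries had 315, 159 and 164 CPM. Without the first of these the adjusted p became 0.0988 at 6 h and 0.251 at 12 h, where the change was then −0.39. At 12 h it also became 0.0923 and 0.113 without AtCEP5 replicate 2 or 3, 0.0841 in the 6 libraries alone and 0.123 without both libraries rich in ribosomal RNA. IAA1, an early auxin-induced repressor, fell by −0.89, −0.92 and −0.71 (SE 0.25 each, edgeR adjusted p = 0.0116, 0.0109 and 0.0374). Its adjusted p became 0.0512 and 0.0779 at 6 h without replicate 1 before treatment or AtCEP5 replicate 1, and 0.0865 at 12 h without AtCEP5 replicate 2. At 24 h it became 0.132 and 0.0573 without replicate 1 or 3 before treatment, and 0.19 and 0.141 without AtCEP5 replicate 1 or 2, and 0.108 in the 6 libraries alone.

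**Figure D3:**
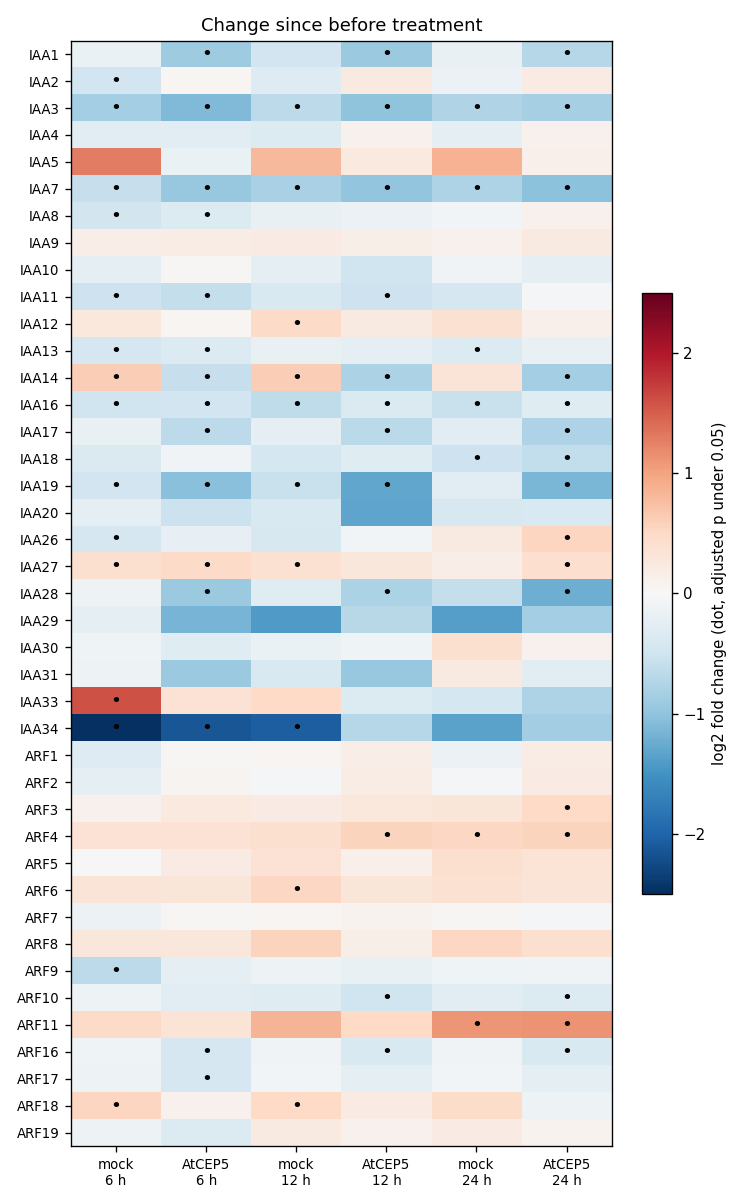
Heat map of log2 fold changes of the tested members against the libraries before treatment in mock and AtCEP5 roots at 6, 12 and 24 h, with a dot where the edgeR adjusted p was under 0.05. IAA14 is 0.62 in mock and −0.58 in AtCEP5 roots at 6 h, and IAA7 is below 0 in all 6 columns.

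Of the 15 ARF genes 2 (13.3%) were called in mock roots at each time, and 2 (13.3%), 3 (20%) and 5 (33.3%) in AtCEP5 roots at 6, 12 and 24 h. All genes were called in 38.7%, 37.4% and 35.1% in mock and in 27.7%, 23.7% and 28% in AtCEP5 roots, so the share of ARF genes was above that of all genes in AtCEP5 roots at 24 h alone. These 16 calls are named here although they fall outside the rule for named genes, so they were chosen after their values were seen. In mock roots ARF9, a repressor, was lower at 6 h by −0.65 (edgeR adjusted p = 0.00107), ARF18 was higher at 6 and 12 h (0.0341 and 0.0429), ARF6, an activator, was higher at 12 h (0.0274), and ARF4 and ARF11 were higher at 24 h (0.0349 and 0.0141). In AtCEP5 roots the miR160 targets were lower, namely ARF10 at 12 h by −0.50 (0.00564) and at 24 h by −0.35 (0.0433), ARF16 at 6, 12 and 24 h by −0.42, −0.38 and −0.38 (0.0261, 0.0487 and 0.0405), and ARF17 at 6 h by −0.41 (0.0492). ARF4, a repressor targeted by the TAS3 small RNAs, was higher at 12 and 24 h (0.0341 and 0.0263), and ARF11 and the TAS3 target ARF3 were higher at 24 h (0.0187 and 0.0171). ARF9 in mock roots at 6 h and ARF10 in AtCEP5 roots at 12 h were called without any 1 library, with adjusted p of up to 0.00906 and 0.0292. Each of the other 14 calls was lost without 3 to 5 of its 6 libraries, with adjusted p of up to 0.241. In each of them a library taken before treatment was among these. In mock roots ARF10, ARF16 and ARF17 were not called, and of the 3 the difference from mock on the average was called for ARF16 alone.

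Photosynthesis genes also moved against 0 h. Of this list 5 of 6 were tested. In mock roots 4 (80%), 4 (80%) and 1 (20%) were called at 6, 12 and 24 h, beside 38.7%, 37.4% and 35.1% of all genes. In AtCEP5 roots 3 (60%), 2 (40%) and 3 (60%) were called, beside 27.7%, 23.7% and 28%. All of these calls were lower. The list summed to 355.9 to 1991 CPM in the libraries before treatment, a wide spread. LHCB1.3, of the light-harvesting complex, fell by −3.45 ± 0.53 in mock roots at 6 h (SE, edgeR adjusted p = 2.21e-05). Of the 8 markers of older root tissue 4 (50%) were called at the same time, 2 higher and 2 lower, beside 38.7% of all genes. The nitrate transporter NRT2.1 rose by 7.20 ± 0.45 (SE, edgeR adjusted p = 2.07e-10) and PHT1;1 was also higher, whereas SUC2 and CASP1 were lower. The part of these changes in the values against 0 h was not tested.

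The other genes of the pathway were counted from lists chosen with earlier results of these data known. Of the 6 auxin receptors, TIR1 was higher after AtCEP5 at 6 h, by 0.50 ± 0.14 (SE, edgeR adjusted p = 0.0181), where AtCEP5 libraries had 100.4, 92.1 and 108 CPM and mock libraries 67.2, 67.2 and 78.3 CPM. Its adjusted p became 0.107 without AtCEP5 replicate 3, and 0.0803 and 0.0734 without mock replicate 1 or 2. On the average TIR1 was 0.41 ± 0.08 higher (SE, edgeR adjusted p = 0.000336) and AFB1 −0.35 ± 0.10 lower (0.0137), and no other receptor was called. The receptor calls were 1 of 6 at 6 h (16.7%) and 2 on the average (33.3%), beside 11.3% and 30.3% of all genes. None of the 5 TOPLESS co-repressors was called in edgeR at any time or on the average, and none had an unadjusted p under 0.05, but TPL was called in the blocked fit at 6 h (adjusted p = 0.0117) and on the average without mock 24 h replicate 2 (0.0482). None of 7 subunits and regulators of the SCF ubiquitin ligase was called, with 0, 1 and 0 at an unadjusted p under 0.05 at 6, 12 and 24 h and 1 on the average. ASK2, a subunit of this ligase, was called on the average by DESeq2 (0.0288) and limma (0.0255).

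Of 24 auxin-responsive genes 20 were tested, and 2, 1 and 4 were called against mock at 6, 12 and 24 h and 9 on the average, 3 higher and 6 lower. These are 10%, 5%, 20% and 45%, beside 11.3%, 12.1%, 7.81% and 30.3% of all genes. The blocked fit of the 6 libraries at 6 h called 6 of them, beside 25.2% of all genes. GH3.2, an enzyme that links auxin to amino acids, was higher by 1.24 ± 0.18 at 6 h (SE, edgeR adjusted p = 7.18e-05) and 1.01 ± 0.17 at 24 h (0.000549). TMO6, a target of ARF5, was higher by 0.80, 0.97 and 0.68 (edgeR adjusted p = 0.00666, 0.00104 and 0.0238). Its 6 h call became 0.059 without mock replicate 1, and its 24 h call 0.0641 to 0.121 without any 1 AtCEP5 library or mock replicate 1 or 2. GATA23, which is known to act downstream of IAA28, was lower at 24 h by −1.54 ± 0.47 (0.0475), and its adjusted p became 0.0542 to 0.231 without any 1 AtCEP5 library or mock replicate 1 or 2. GH3.5 was higher at 24 h by 0.56 (0.0389), and its adjusted p became 0.0606 to 0.198 without AtCEP5 replicate 1 or 2 or any 1 mock library. On the average the lower genes were TMO7, GATA23, LRP1, PUCHI, LBD29 and GH3.1, and the higher genes TMO6, GH3.5 and GH3.2. Auxin-responsive genes thus moved in both directions after AtCEP5.

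Markers of other root tissues moved in the same comparisons. Of the 8 markers of older root tissue, 3, 2 and 1 were called at 6, 12 and 24 h and 3 on the average. Their shares were 37.5%, 25%, 12.5% and 37.5%, beside 11.3%, 12.1%, 7.81% and 30.3% of all genes. The sum of the 8 markers was 1702 to 2117 CPM in AtCEP5 and 1935 to 2117 CPM in mock roots at 6 h. It was 853 to 1415 against 1162 to 1243 CPM at 12 h, and 937 to 1157 against 882 to 1655 CPM at 24 h. The list includes NRT2.1 and PHT1;1, which were called higher against 0 h at 6, 12 and 24 h in both treatments. The part of these genes in the sum was not tested. SUC2, of phloem companion cells, averaged 1.64 higher (edgeR adjusted p = 1.32e-07), whereas the root hair genes COBL9 and EXPA7 averaged −0.54 and −0.39. Of the 8 meristem markers 0, 0 and 1 were called, and WOX5 was 0.82 higher at 24 h (edgeR adjusted p = 0.0372), which became 0.0873 to 0.184 without AtCEP5 or mock replicate 2 or 3. On the average 2 were called, beside 30.3% of all genes, with WOX5 0.42 ± 0.14 higher (SE, edgeR adjusted p = 0.0246) and CYCB1;1, a cyclin of dividing cells, −0.34 ± 0.11 lower (0.0244), and 3 of 8 were above 0 and 5 below. The WOX5 average became 0.052 to 0.0657 without AtCEP5 or mock replicate 2 of 6 or 24 h. Without both libraries rich in ribosomal RNA its edgeR adjusted p was 0.074. Without AtCEP5 replicate 2 of 6 or 24 h the CYCB1;1 average became 0.0582 or 0.0586. Without mock 6 h replicate 1, mock 12 h replicate 1 or 3 or mock 24 h replicate 3 it became 0.053 to 0.069. In limma it became 0.0629 to 0.09. The meristem sum was 160.4 to 171 CPM in AtCEP5 and 143 to 176 CPM in mock roots at 6 h, 153.5 to 165 against 165 to 196 CPM at 12 h, and 157 to 171 against 145 to 187 CPM at 24 h. The photosynthesis sum was 169.9 to 265 against 134 to 233 CPM at 6 h, 234 to 433 against 156 to 209 CPM at 12 h, and 363 to 377 against 296 to 406 CPM at 24 h. No gene of these lists was at 0 in any group. The part of these tissues in the differences of the Aux/IAA genes was not tested.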

How the data were processed

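Counts per gene were deposited by the authors for 21 libraries, together with FPKM values per gene. Per the submitters' processing notes the tools were STAR 2.7.8a, StringTie 2.1.3 and HTSeq, and the genome build and strand setting of the counting are not stated there. The deposited FPKM values were 10.0 times those recomputed from the counts and gene lengths for all 461492 values above 0, and were divided by 10. Gene starts and ends of all 44 members equalled those of TAIR10.1 (RefSeq), from which sequences were taken. Without a known strand setting, reads of 11 members that overlap a gene on the other strand, and of 2 on the same strand, cannot be assigned with certainty.

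Differences were tested with edgeR 4.0.16 (quasi-likelihood, TMM) in R 4.3.3, in 1 fit of all 21 libraries (7 means, 14 residual degrees of freedom), after edgeR's expression filter, with Benjamini-Hochberg adjustment over 19938 genes and a threshold of 0.05. CPM values use TMM-scaled library sizes. DESeq2 1.42.0, limma 3.58.1 on log2(FPKM + 1), other filters and scalings, smaller fits and fits without 1 library were alternatives. Depth was 10334319 to 14345476 counts per library, which limits genes under about 1 CPM. Replicates of a group differed by more than counting noise, with a chi-square per degree of freedom of 5.54 to 36.1, so none was a repeat deposit. Samples were grouped by their labels.

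The members and gene lists were chosen with earlier results of these data known. Members are named in full where they passed the test against mock, where they had 1 of the 5 largest mean changes among members passing at 2 or more times against 0 h, or where they neighbour such a gene on the chromosome. Of each other list at most 4 genes passing against mock at a single time are described. Some genes that passed only on the average, in an alternative or against 0 h are named as well. Labels number the replicates of each group. The correlation of same-numbered AtCEP5 and mock libraries, as deviations from their group means, was 0.182, 0.117 and 0.241 at 6 h, all over 0.1. It was 0.0301, −0.0495 and 0.0296 at 12 h and −0.194, 0.0918 and −0.14 at 24 h. Differently numbered libraries at 24 h reached 0.241 (AtCEP5 1 with mock 2), 0.176 (AtCEP5 2 with mock 3) and 0.354 (AtCEP5 3 with mock 1). Correlations of this size thus also occur between libraries that share no number, so the values at 6 h cannot establish pairs. No label states a pairing, and the block on the replicate number is an alternative only.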

Additional observations from a re-analysis of the deposited data

How the results depend on the processing

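Counts of members called are given with the main value before each alternative, and the cause of each change was not tested. Against mock at 6 h 4 members became 8 in DESeq2, 7 in the 6 libraries alone, 12 in these with the replicate number as a block, 2 in limma on log2(FPKM + 0.1) and 2 in limma on log2(FPKM + 1) without a filter. At 12 h 4 became 2 without both libraries rich in ribosomal RNA, and at 24 h 3 became 1 in the 6 libraries with the replicate block. With 1 library left out these counts were 1 to 3 at 6 h, 1 to 3 at 12 h and 2 to 6 at 24 h. Against 0 h, mock 6 h went from 15 to 8 in the 6 libraries alone and to 5 with the replicate block, and mock 24 h from 7 to 3 in the 6 libraries alone. AtCEP5 6 h went from 15 to 5 with the replicate block, AtCEP5 12 h from 12 to 7 in the 6 libraries alone and to 7 without both libraries rich in ribosomal RNA, and AtCEP5 24 h from 16 to 7 in the 6 libraries alone and to 6 with the replicate block. With 1 library left out these counts were 10 to 14 (mock 6 h), 6 to 14 (mock 12 h), 4 to 12 (mock 24 h), 10 to 14 (AtCEP5 6 h), 7 to 12 (AtCEP5 12 h) and 7 to 16 (AtCEP5 24 h). Over all genes, 2247 calls against mock at 6 h became 4802 with the replicate block, and 1558 at 24 h became 897 in the 6 libraries alone and 600 with the block. No label says what a replicate number marks at any time. The block in the 6 libraries ended the calls of IAA17 (edgeR adjusted p = 0.273) and IAA19 (0.0862) against mock at 24 h. Against 0 h it ended those of IAA16 in mock roots at 6 h (0.0714) and of IAA28 at 6 h (0.0531) and IAA1 at 24 h (0.114) in AtCEP5 roots. The average over the 3 times gave 15 calls and 12 to 17 in its alternatives.

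Signs reversed for 10 values that were not called. With 1 library left out, the log2 fold change of IAA16 at 6 h ran from −0.0186 (without mock replicate 1) to 0.0743, with −0.0152 without AtCEP5 replicate 3. That of IAA3 ran from −0.454 to 0.0627 (without mock replicate 2) at 6 h, with 0.061 without both libraries rich in ribosomal RNA. At 24 h it ran from −0.208 to 0.0518 (without AtCEP5 replicate 3), with 0.0443 without mock replicate 1. That of GATA23 ran from −0.671 to 0.0401 at 6 h and from −0.732 to 0.0939 at 12 h, above 0 without mock replicate 3 each time. That of WOX5 at 6 h ran from −0.28 to 0.12 (without AtCEP5 replicate 1), with 0.0557 without mock replicate 1. Among the values of named genes, 1378 kept direction and side of the threshold, 32 became called and 48 lost their call over alternatives that left out no single library. With 1 library left out 978 kept them, 9 became called and 120 lost their call. Under limma on log2(FPKM + 0.1) the median over all genes of the AtCEP5 difference at 12 h minus that at 6 h was −0.10.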
